A study of Mus musculus with 2 samples.

Results

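Smooth muscle cells were described in single-cell RNA libraries of the bleomycin-injured mouse lung, 1 from Pclaf wild-type (WT) and 1 from Pclaf knock-out (KO) mice. They were selected on their own measured counts of unique molecular identifiers (UMIs, 1 per captured RNA molecule). A barcode was kept when it held more than 200 and fewer than 5000 genes and less than 20% mitochondrial UMIs. It was then taken as a smooth muscle cell when it held at least 1 UMI of at least 2 of Myh11, Des, Cnn1 and Actg2, at least 1 UMI of Acta2, and 0 UMIs of the pericyte genes Cox4i2 and Higd1b, the immune gene Ptprc, the endothelial genes Pecam1 and Cdh5, the epithelial gene Epcam and the mesothelial gene Msln. This rule found 268 cells among 45824 kept barcodes, 160 of 30187 in Pclaf WT and 108 of 15637 in Pclaf KO.

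Both groups received bleomycin, a drug that injures the alveolar epithelium, at 1.35 U/kg by the series text, and lungs were taken 1 week later from mice 8 to 10 weeks old. The study's sources do not give the same dose throughout, and no uninjured library was analysed here. The KO mice lack Pclaf in all cells, so the genotype is not confined to muscle. The labels call the material epithelial cells, and the sort used antibodies against CD31, CD45 and EpCAM, a gate that would remove smooth muscle. The selected cells are therefore those that passed it against its purpose, and their share describes a sorted library, not a lung. The number of animals behind each library was not given. With 1 library per genotype no test between genotypes was possible. Every interval below is an exact 95% interval that covers counting error only, not the spread between mice.

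Smooth muscle cells shorten when calcium and calmodulin activate myosin light chain kinase, and the myosin heavy chain Myh11 then pulls on filaments of the alpha actin Acta2. Their contractile genes are switched on by serum response factor with its coactivator myocardin, which bind a short DNA element, the CArG box. In the lung, bundles of smooth muscle surround the conducting airways, where Hedgehog and cholinergic signals act on them, and sheathe the arteries and veins, where Notch signals between endothelium and muscle maintain them.

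To show this element, the promoters of the listed contractile, marker and serum response factor genes were searched on both strands for a CArG box. It was written as CC, then 6 bases that are each A or T, then GG. The lists were made by function, the serum response factor axis among them, so the shares below are a description and no test. Of 51 listed genes, 42 had a promoter in RefSeq (GRCm38.p6, 250 bases before to 50 after the start), and 9 of these (21.4%) held the element, against 488 of 27025 genes (1.81%) in the whole table. The matches lay in promoters of Myl9, Myl6, Actg1, Vcl, Filip1l, Srf, Fhl1, Fhl2 and Ldb3. The following stretches hold the boxes, in capitals, of the contractile light chain gene Myl9 (chr2:156775283-156775332, plus strand), the actin anchor gene Vcl (chr14:20929151-20929200, plus strand), the filamin-binding gene Filip1l (chr16:57549160-57549209, plus strand) and Srf itself, which encodes the serum response factor (chr17:46556195-46556244, minus strand).
Myl9: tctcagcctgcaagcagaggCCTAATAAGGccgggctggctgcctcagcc
Vcl: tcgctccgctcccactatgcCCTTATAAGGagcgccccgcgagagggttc
Filip1l: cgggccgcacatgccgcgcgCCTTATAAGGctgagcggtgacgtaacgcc
Srf: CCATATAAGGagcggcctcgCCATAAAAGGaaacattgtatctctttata
The box of Myl9 began 161 bases before the start, that of Vcl 227 and that of Filip1l 62, and the Srf window held 2 boxes, beginning 82 and 62 bases before it. Acta2, Cnn1 and Des, the genes of the rule with a promoter entry, had no such letters in their 300 bases. Myl9 was at 1561 CPM (the summed UMIs of the cells, scaled to a common total) in WT and 1562 in KO. Vcl was at 538.5 and 440 CPM, Filip1l at 428 and 523.5 CPM, and Srf at 41.1 and 25.1 CPM. A match describes the letters of a window and was not tested as a binding site.

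Before any comparison the libraries themselves were examined. Kept barcodes held a median of 2127 UMIs in WT and 5957 in KO, and the smooth muscle cells held medians of 4277.5 and 5049, with ranges of 531 to 18294 and 540 to 17631. Their UMIs summed to 753927 in WT and 597925 in KO. The libraries differed in their other cells. Barcodes with Ptprc and none of Pecam1, Cdh5, Epcam and Msln numbered 6286 of 30187 in WT and 314 of 15637 in KO. Over all kept barcodes Pecam1 was at 433 CPM in WT and 22.7 in KO, and Epcam at 37.0 and 187 CPM. Values of the whole libraries and of the other barcodes below include this difference. Of all barcodes, 163 occurred in both libraries. None of the 268 cells shared a barcode with a cell of the other library's selection, and 2 of the KO cells carried a barcode that the WT library also held. The methods name male mice, but 50 of the 160 WT cells held Xist, the RNA of the inactive X chromosome, without Y-linked RNA, while 66 held Y-linked RNA without Xist and 0 held both. In KO these counts were 53, 25 and 4 of 108 cells. Both libraries thus went against that detail, and KO had more of the cells with Xist.

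The targeted gene was examined first. Pclaf (chr9:65890237-65903266, plus strand, GRCm38), which encodes a PCNA-binding factor of cycling cells, had 26 UMIs in 6 WT smooth muscle cells, 10 of them in 1 cell, and 2 UMIs in 2 KO cells. Scaled, these were 34.5 and 3.34 CPM. The log2 ratio of KO to WT was thus -3.37 (-6.49 to -1.37), beside -2.92 in the whole libraries. Pclaf was low in both, in the direction of the labels. Clic4, a chloride intracellular channel gene that the study follows in epithelium, stood at 789 CPM in WT and at 555 in KO smooth muscle (log2 ratio -0.51, -0.71 to -0.31), beside -1.47 in the whole libraries.

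The share of smooth muscle cells among kept barcodes was 0.530% (0.451 to 0.619) in WT and 0.691% (0.567 to 0.833) in KO. The order turned around with the denominator. Of mesenchymal barcodes, those with Pdgfra, Pdgfrb or Col1a2 and none of the immune, endothelial, epithelial and mesothelial exclusion genes, they made up 6.04% in WT (152 of 2518) and 3.97% in KO (105 of 2642). Without the 7 exclusion genes the shares were 1.20% and 1.07%. Those genes had removed 202 WT and 59 KO barcodes that carried the muscle markers, among them 61 WT barcodes and 1 KO barcode with Ptprc and 93 and 12 with Pecam1. No direction of the share was therefore read.

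The genes of the rule are given as a description. Acta2 (chr19:34241090-34255590, minus strand) was at 8257 CPM in WT and 7812 in KO, and Myh11 (chr16:14194535-14291372, minus strand) at 2640 and 1943 CPM. The intermediate filament gene Des was at 1089 and 766 CPM, the gamma actin Actg2 at 982 and 674 CPM, and calponin, Cnn1, at 733 and 617 CPM. All 4 of the scored markers were present in 84 WT and 49 KO cells, 3 in 36 and 22, and exactly 2, the least that the rule takes, in 40 and 37. Among genes outside the rule, Tagln, which binds actin filaments, was at 1992 and 2666 CPM in cells with 2 markers and at 8237 and 9367 CPM in those with 4, while the collagen gene Col1a1 went from 3025 and 1504 CPM with 2 markers to 696 and 547 CPM with 4. Just outside, 95 WT and 101 KO barcodes with Acta2 and exactly 1 marker had Tagln at 1165 and 702 CPM and Col1a1 at 2848 and 2025 CPM.

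Markers that the rule did not use also set these cells apart from the pericytes and fibroblasts of the same libraries. Pericytes (73 in WT, 37 in KO) were barcodes with Pdgfrb and a pericyte gene, and fibroblasts (1026 and 1811) were barcodes with Pdgfra and Col1a1. Transgelin, Tagln, which binds the actin of muscle filaments, was at 6349 CPM in WT and 6727 in KO smooth muscle, against 270 and 420 in pericytes and 263 and 168 in fibroblasts. Leiomodin, Lmod1, a nucleator of muscle actin, was at 427 and 368 CPM, against 17.2 and 55.5 in pericytes. Myocd, which encodes myocardin, was at 256 and 209 CPM, against 23.0 and 23.8 in pericytes. Each of these genes was higher in smooth muscle than in both other classes, in both libraries. In contrast, the Notch receptor gene Notch3 was lower in smooth muscle than in pericytes (log2 ratio -1.28 in WT and -1.71 in KO) and so was the cation channel gene Trpc6 (-4.89 and -6.69). The cardiac actin Actc1 was at 1198 and 885 CPM in smooth muscle and had 0 UMIs in pericytes. The atrial myosin gene Myh6 of the cardiac list was at 0 UMIs in both libraries' smooth muscle cells.

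**Figure D1:**
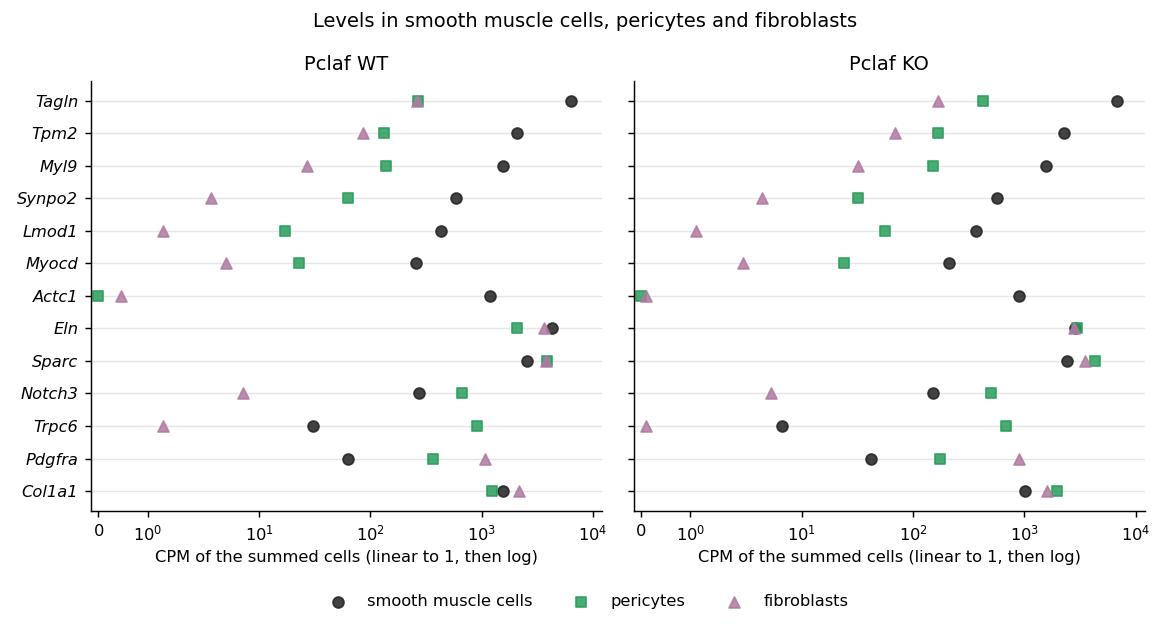
CPM of the summed UMIs (x axis, linear to 1 and then log) of 13 genes in smooth muscle cells, pericytes and fibroblasts, with Pclaf WT on the left and Pclaf KO on the right. From Tagln to Actc1 the circles of smooth muscle lie to the right of both other classes in both libraries, and for Notch3 and Trpc6 they lie to the left of the pericytes. Pdgfra and Col1a1 were used to choose the fibroblasts.

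The genes outside the rule with the strongest excess over all other kept barcodes in both libraries were Mylk4, Actc1, Sost, Scube3, Plin4, Aoc3, Lmod1, Fbxl22, Hpse2, Kcnmb1, Myl9, Adcy5, Synpo2, Tcap and Cdh6. Actc1 exceeded the other barcodes by a log2 ratio of 6.73 in WT and 8.27 in KO. Sost, which encodes the Wnt inhibitor sclerostin, exceeded them by 6.65 and 8.07, and Kcnmb1, the beta subunit of the calcium-activated potassium channel of smooth muscle, by 6.14 and 6.75. Tcap, a sarcomere protein gene also used in striated muscle, exceeded them by 6.06 and 7.56.

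Smooth muscle cells did not form a uniform group: they fell apart by Hhip, a Hedgehog-binding membrane protein whose gene is itself a Hedgehog target (chr8:79965851-80058006, minus strand). In WT, 119 of 160 cells had 0 UMIs of Hhip, 6 had 1 to 4, and 35 had at least 5 with a median of 27 (6 to 78). In KO, 51 of 108 cells had 0, 7 had 1 to 4, and 50 had at least 5 with a median of 19.5 (6 to 73). Few cells lay between. Cells with at least 5 UMIs are called Hhip-high and those with 0 Hhip-negative, a division chosen after the counts were seen. In WT 21.9% of smooth muscle cells (15.7 to 29.1) were Hhip-high, and in KO 46.3% (36.7 to 56.2).

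Notch3 (chr17:32120820-32166852, minus strand), a receptor of vascular muscle, was found in the remaining cells. It was present in 74 WT and 34 KO cells, and only 2 WT cells and 1 KO cell held both Hhip and Notch3. Of the Hhip-negative cells, 107 of 119 in WT and 49 of 51 in KO held at least 1 gene of the vascular mural list, and so did 21 of 35 and 25 of 50 Hhip-high cells, so that list did not mark the Hhip-negative cells as Notch3 did. The Hhip-high cells had 0 Notch3 UMIs in WT and 1 in KO. The Hhip-high cells had like depth in both libraries (median 4364 and 4246.5 UMIs), while the Hhip-negative cells had 4235 in WT and 5832 in KO.

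**Figure D2:**
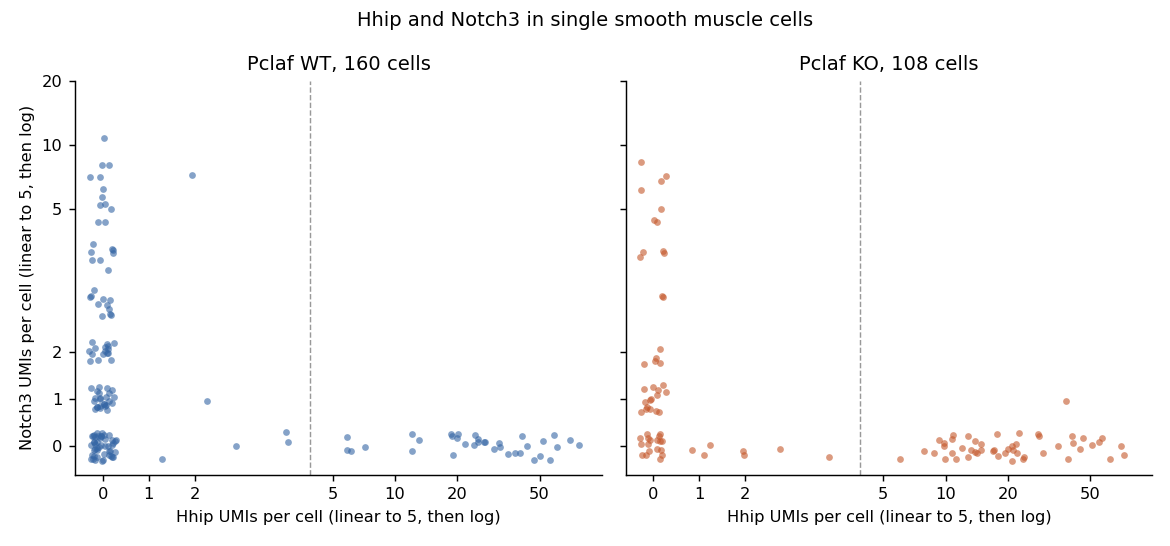
Hhip UMIs (x axis) and Notch3 UMIs (y axis) of each smooth muscle cell, both linear to 5 and then log, with points shifted slightly so that equal values can be seen, for 160 Pclaf WT cells on the left and 108 Pclaf KO cells on the right. The points lie along the axes, and to the right of the dashed line at the division 1 cell, in Pclaf KO, holds Notch3.

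The difference in shares between the libraries was also seen at equal depth. When each cell was thinned to 1000 UMIs, which left out 10 WT and 2 KO cells, 24.0% of WT cells (17.4 to 31.6) still held Hhip, against 43.4% in KO (33.8 to 53.4). The Ptprc-positive immune barcodes of the same libraries held Hhip in 0.590% and 0.327% at this depth (median 2721 and 3665 UMIs before thinning). The part of free RNA in the shares of smooth muscle cells was not tested. In cells with Xist alone the share of Hhip-high cells was 14% in WT (7 of 50, 5.82 to 26.7) and 45.3% in KO (24 of 53, 31.6 to 59.6). In cells with Y-linked RNA alone it was 27.3% in WT (18 of 66, 17.0 to 39.6) and 52.0% in KO (13 of 25, 31.3 to 72.2). KO was higher within each, but the intervals overlapped in cells with Y-linked RNA alone. Among cells with at least 3 of the 4 markers the share was 18.3% in WT and 28.2% in KO, so much of the difference lay in cells with 2 markers.

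Other genes were then compared between the groups. Of 4304 genes tested, 413 were at least 2-fold higher in Hhip-high than in Hhip-negative cells in WT and 517 in KO, and 250 (5.81%) in both libraries. At least 2-fold lower were 480 in WT, 445 in KO and 253 (5.88%) in both. The sign was the same in both libraries for 2887 genes. Since Hhip divided the cells and all genes come from the same cells, these are descriptions, with no test. The Hedgehog receptor gene Ptch1, a target of the pathway, was at 428 CPM in WT Hhip-high cells against 51.4 in WT Hhip-negative cells, and at 450 against 47.3 in KO. The coreceptor gene Boc was at 184 against 21.3 CPM in WT and 142 against 15.8 in KO. Both stood higher with Hhip in each library, whereas the ligand gene Shh had 1 UMI over all 268 cells. The site of the GLI factors, GACCACCCA on either strand, was not in the promoters of the 6 Hedgehog genes with an entry, and 78 of 27025 genes (0.289%) held it.

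Several secreted signals stood higher in the Hhip-high cells, while others stood lower. Wnt5a, a ligand of airway mesenchyme, was at 1053 CPM in WT Hhip-high cells against 1.77 in Hhip-negative cells, and at 633 against 34.7 in KO. Of the 11 UMIs behind that last value 7 lay in the 2 cells without a vascular gene, and the other Hhip-negative KO cells were at 12.9 CPM. Igf1, the insulin-like growth factor, had log2 ratios of Hhip-high over Hhip-negative of 3.94 in WT and 2.61 in KO, and the bone morphogenetic protein gene Bmp5 of 2.96 and 2.52. Of 10 tested genes of the growth factor list besides Hhip itself, 6 were at least 2-fold higher in Hhip-high cells of both libraries and 2 lower. Over all genes tested these shares were 5.81% and 5.88%. The muscarinic receptor gene Chrm2, through which acetylcholine acts on airway muscle, was at 165 against 7.09 CPM in WT and at 204 CPM against 0 UMIs in KO (at least 21.6-fold). Lum and Dcn, small proteoglycans of fibrous tissue, exceeded the Hhip-negative cells by 5.47 and 3.58 on the log2 scale in WT and by 6.40 and 4.60 in KO.

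Markers of neighbouring cell types moved with this division. Lum and Dcn belong to the fibroblast list, in which 2 of 3 tested genes were at least 2-fold higher in Hhip-high cells of both libraries. Over all genes tested that share was 5.81%. The fibroblast list's summed CPM was 1285 in Hhip-high against 197 in Hhip-negative cells of WT, and 2412 against 126 in KO. Dcn was its most abundant gene. The third, the fibroblast receptor gene Pdgfra, was at 12.2 against 72.7 CPM in WT and at 41.7 against 34.7 in KO. Both tested genes of the pericyte list, Kcnj8 and Abcc9, which encode the subunits of a potassium channel, were also at least 2-fold higher, and the list summed to 434 against 163 CPM in WT and 433 against 123 in KO. The pericyte gene Trpc6 had 0 UMIs in the Hhip-high cells, as did Cox4i2 and Higd1b by the rule. The part of other cells in these values was not tested.

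Some Notch genes and some contractile genes stood higher in the Hhip-negative cells. In Hhip-negative cells Notch3 was at 355 CPM in WT and at 284 in KO, and its target Heyl at 168 and 117 CPM, against 0 and 8.33 CPM of Heyl in Hhip-high cells. Over all 4304 genes tested, 5.88% were at least 2-fold lower in Hhip-high cells of both libraries and 5.81% higher. Of 6 tested Notch genes 3 were at least 2-fold lower in both libraries and 0 higher. The ligand gene Jag1 had ratios of -3.67 and -3.77. The serine protease gene Prss23 was at 518 and 527 CPM and had 0 UMIs in the Hhip-high cells of either library (at least 28.2-fold and 42.2-fold). Actc1 was at 1567 and 1524 CPM against 97.9 and 125 CPM. Of 30 contractile genes 12 were at least 2-fold lower in Hhip-high cells of both libraries and 0 higher, with a median ratio of -0.84 in WT and -1.51 in KO. Of 10 tested smooth muscle markers outside the rule 7 were at least 2-fold lower in both and 0 higher. Their medians were -1.32 in WT and -1.87 in KO. Whether all Hhip-high cells are smooth muscle was not tested. Acta2 was at 3439 CPM in WT Hhip-high cells against 9859 in Hhip-negative cells, and at 2266 against 12539 in KO. The rule itself used Acta2 and took cells with few markers: 14 of 35 WT and 11 of 50 KO Hhip-high cells held all 4, against 68 of 119 and 37 of 51 Hhip-negative cells.

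**Figure D3:**
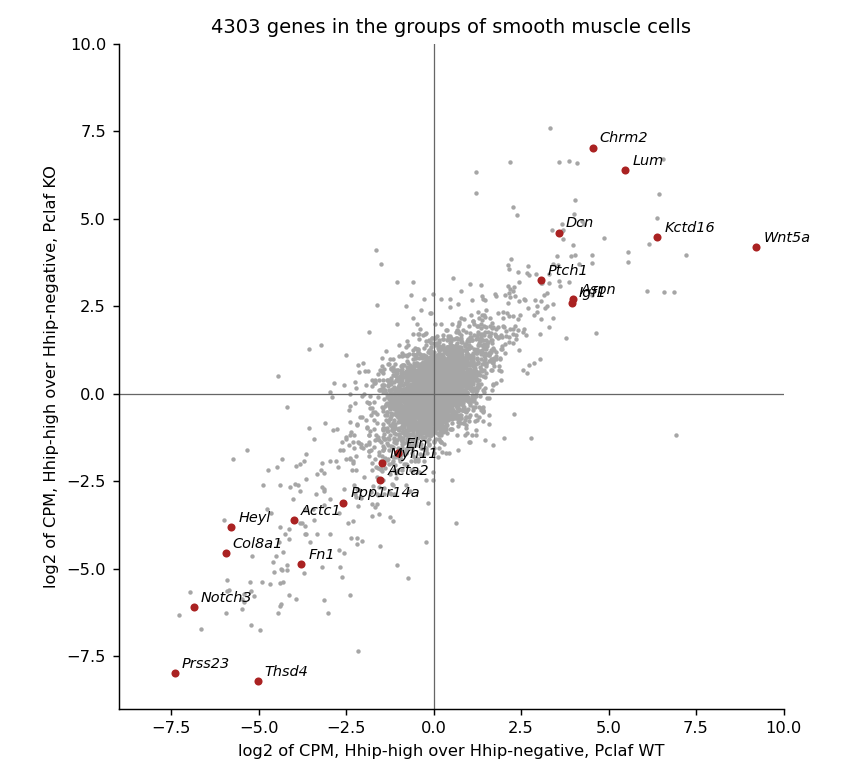
Log2 ratio of CPM in Hhip-high over Hhip-negative smooth muscle cells in Pclaf WT (x axis) and Pclaf KO (y axis) for 4303 genes, Hhip left out, with named genes in red. Wnt5a, Lum, Chrm2 and Ptch1 lie at the upper right, higher with Hhip in both libraries, and Notch3, Prss23 and Actc1 at the lower left.

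Pclaf KO was then set against Pclaf WT over all smooth muscle cells. Of 15083 genes with a UMI, 4493 had at least 50 UMIs over both libraries. Of these 88 (1.96%) were at least 2-fold higher in KO and 148 (3.29%) at least 2-fold lower, with a median log2 ratio of -0.10. With TMM scaling these counts were 101 and 118, with a median of -0.04. Of the 88 higher genes 26, and of the 148 lower genes 54, were also past 2-fold in the whole libraries.

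The largest ratios belonged to genes of other cell types. The surfactant gene Sftpc of alveolar type 2 cells went from 312 CPM in WT to 4208 in KO smooth muscle cells (log2 ratio 3.75, beside 3.83 in the whole libraries), was found in 33.1% of WT and 100% of KO cells, and had 1431 of its 2516 KO UMIs in 1 cell. At 1000 UMIs per cell it was found in 14.7% of WT and 70.8% of KO smooth muscle cells, close to the 13.7% and 77.8% in Ptprc-positive barcodes. The club cell gene Scgb1a1 went from 158 to 1902 CPM, with 542 of its 1137 KO UMIs in 1 cell. All 5 tested genes of the epithelial list were at least 2-fold higher in KO, beside 1.96% of all genes tested. The highest ratios also included Slc34a2, Sftpb, Retnla, Hp, Scgb3a2, Wfdc2, Scd1, Sftpa1, Cxcl15 and Ank3. A single KO cell each held 114 of the 126 KO UMIs of Retnla, 53 of 64 of Scgb3a2, 45 of 64 of Slc34a2 and 81 of 124 of Sftpb. The same held for 74 of 120 of Cxcl15, 61 of 99 of Scd1 and 38 of 62 of Hp. The most in 1 cell were 117 of 244 for Sftpa1, 30 of 62 for Ank3 and 24 of 78 for Wfdc2.

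Several immune genes stood at the other end. Of 4 tested genes of the immune list 3 were at least 2-fold lower in KO (Cd74, S100a8 and S100a9). The other, Lyz2, was higher, with 282 of its 589 KO UMIs in 1 cell. Over all genes tested 3.29% were lower and 1.96% higher. The immune list's summed CPM was 1009 in WT and 1069 in KO. S100a8 had 56 WT UMIs, 49 of them in 1 cell, and 0 in KO, and S100a9 had 73, of which 68 lay in 1 cell, and 1. A single WT cell each held 37 of the 74 WT UMIs of H2-Eb1, 36 of 82 of H2-Aa and 40 of 93 of H2-Ab1. Ccl6, Tyrobp, Ctss, H2-Aa, H2-Ab1 and H2-Eb1 were also among the 12 lowest, with the endothelial gene Adgrf5 and Ctla2a. The remaining 2 of the 12 were not of that kind. Cthrc1, a secreted gene of injury-activated fibroblasts, had 56 UMIs in 7 WT cells and 1 in KO, although it was higher in KO in the whole libraries (1.25). Its direction turned when the upper limit on genes per barcode was dropped, which gave 0.43 in place of -5.47. Fat3, a cadherin gene, had 64 UMIs in WT and 6 in KO (-3.08), beside 0.41 in the whole libraries. The endothelial list had no gene with 50 UMIs (49 UMIs summed in WT and 5 in KO), and the mesothelial list had 0 UMIs. The part of free RNA in these ratios was not tested gene by gene.

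A narrower set was taken next, and its exposure to RNA of other cells was not tested. It is formed by 655 genes that were at least 2-fold higher in smooth muscle cells than in the other kept barcodes of both libraries. Of these 30 (4.58%) were at least 2-fold higher in KO and 32 (4.89%) lower, with a median of -0.12. The higher genes included Dcn, Lum, Aspn, Ogn, Col14a1, Igfbp5, Ecm2, Gadd45g and the tendon transcription factor Scx. The lower genes included Tnc, Lox, Fn1, Col8a1, Itga5, Mcam, Pdgfd, Myom1 and Ctgf.

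**Figure D4:**
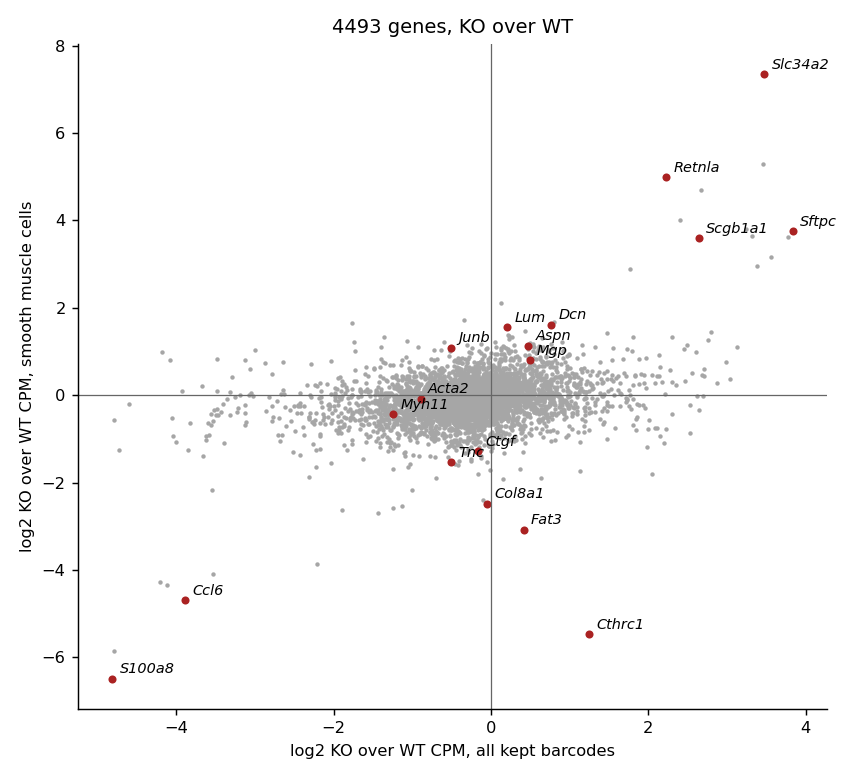
Log2 ratio of KO over WT CPM in smooth muscle cells (y axis) against that of all kept barcodes (x axis) for 4493 genes, with named genes in red. Sftpc, Scgb1a1 and S100a8 lie far from 0 on both axes, and Cthrc1, Fat3, Col8a1, Tnc, Dcn and Lum lie far from 0 in smooth muscle with whole-library values nearer 0 or of the other sign.

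Lists of the contractile apparatus and its control, which leave out the genes of the rule, were counted next beside the shares over all genes tested (1.96% higher and 3.29% lower). Of 30 tested contractile genes 0 were at least 2-fold higher in KO and 1 lower, with a median of -0.29, and their summed CPM was 40915 in WT and 36879 in KO. The lower gene was Itga5, the fibronectin receptor subunit, at 244 and 104 CPM. None of the 10 tested markers outside the rule was past 2-fold in either direction, with a median of 0.01. That median had the other sign in 9 alternatives. Within the groups it was -0.23 over 7 genes in Hhip-high cells and 0.38 over 10 genes in Hhip-negative cells. Tropomyosin, Tpm2, was at 2092 and 2275 CPM, and smoothelin, Smtn, at 265 and 167 CPM. Of 16 calcium and channel genes 1 was higher, the potassium channel gene Kcnj8 (49.1 and 100 CPM), and 0 lower. Of 15 genes of contracting and relaxing signals 1 was higher, Chrm2 (41.1 and 83.6 CPM), and 0 lower. Of 7 genes of the serum response factor axis 1 was lower, the cofactor Vgll3 (118 and 45.2 CPM), and 0 higher. With 0 or 1 gene each past 2-fold, these counts are too small to set the lists apart from all genes tested.

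Genes of the extracellular matrix differed in both directions. Of 41 tested, 5 were at least 2-fold higher in KO, namely the proteoglycans and related genes Aspn, Ogn, Dcn and Lum with the collagen gene Col14a1. The 5 lower genes were Fn1, Tnc, Col8a1 and the collagen crosslinking enzymes Lox and Loxl2, and the median over the list was -0.23. Over all genes tested 1.96% were higher and 3.29% lower. Dcn was at 221 CPM in WT and 679 in KO (log2 ratio 1.62, 1.35 to 1.88), and Aspn at 580 and 1271 (1.13, 0.96 to 1.31). Fn1 was at 1159 and 538.5 CPM (-1.11, -1.29 to -0.92), with 174 of its 322 KO UMIs in 1 cell. Tenascin, Tnc, was at 614 and 212 CPM (-1.53, -1.83 to -1.25), with 141 of its 463 WT UMIs in 1 cell, and Col8a1 had 62 of its 106 WT UMIs in 1 cell. Some of these genes are also markers of fibroblasts. The fibroblast list summed to 448 CPM in WT and 1099 in KO, and Dcn and Lum themselves were the 2 of its 3 tested genes at least 2-fold higher, while Pdgfra was at 62.3 and 41.8 CPM. Its median of 1.56 turned to -0.21 when genes of at least 20 UMIs were taken. The list of activated fibroblasts, which holds Tnc, summed to 1180 and 564 CPM, with 2 of 3 lower (Tnc and Cthrc1), and their part in the matrix values was not tested. Elastin, Eln, the elastic fibre protein of vessel walls, was at 4300 and 2841 CPM (-0.60, -0.68 to -0.51). The matrix Gla protein gene Mgp, an inhibitor of calcification, was at 11658 and 20285 CPM (0.80).

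Genes of the airway and vascular lists were mostly within 2-fold between the libraries. Hhip was at 1476 CPM in WT and 2124 in KO (0.52, 0.41 to 0.64), and Lgr6, a receptor gene of airway muscle, at 186 and 241 CPM. Notch3 was at 276 and 152 CPM, and the adhesion gene Mcam at 292 and 144 CPM. Of 3 tested airway genes 1, Chrm2, was at least 2-fold higher (1.96% over all genes tested). Of 4 vascular genes 1, Mcam, was at least 2-fold lower (3.29% over all genes tested). The medians were 0.52, which is the value of Hhip itself, and -0.83. The summed vascular list had ratios of -0.99 (-1.67 to -0.32) in Hhip-high and -0.31 (-0.51 to -0.11) in Hhip-negative cells, so it was lower in KO in both. The summed airway list, which holds Hhip, had a ratio of 0.54 (0.43 to 0.65) over all cells. It was at -0.30 (-0.41 to -0.18) in Hhip-high and -0.02 (-0.57 to 0.51) in Hhip-negative cells, so it was higher in KO in neither group. Of 6 Notch and 12 growth factor genes, Hhip among the latter, 0 were past 2-fold, with medians of -0.55 and 0.29. Within the groups only 6 growth factor genes were tested in each, and their median had the other sign, at -0.14 in Hhip-high and -0.09 in Hhip-negative cells. The sets of genes differ from the 12 over all cells, so these medians do not measure the same genes. The summed growth factor list, which holds Hhip, the gene that set the groups, had ratios of -0.32 (-0.42 to -0.23) and -0.06 (-0.26 to 0.14) there.

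Since the Hhip-high share differed between the libraries, genotypes were compared again within each group. In Hhip-high cells 1308 genes were tested, of which 27 (2.06%) were higher in KO and 40 (3.06%) lower, and in Hhip-negative cells 2990 genes, of which 45 (1.51%) were higher and 125 (4.18%) lower. Dcn was at 65.6 CPM in WT and 63.1 in KO Hhip-negative cells and at 783 and 1533 CPM in Hhip-high cells. Lum was at 10.6 and 9.47 CPM in Hhip-negative cells and at 471 and 800 CPM in Hhip-high cells. Of the Hhip-negative KO UMIs, 18 of 20 of Dcn and all 3 of Lum lay in the 2 cells without a vascular gene. In the Hhip-negative cells with one, Dcn was at 65.5 CPM in WT and 6.45 in KO. Neither gene was thus higher in KO among Hhip-negative cells. Aspn was higher in KO in both groups, at 2136 and 2566 CPM in Hhip-high cells and at 135 and 394.5 in Hhip-negative cells. No matrix gene of 34 tested was 2-fold higher in KO Hhip-high cells and 3 were lower, while 2 were higher and 7 lower of 38 tested in Hhip-negative cells.

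Other matrix and TGF-beta genes differed among themselves. Fn1, which had most of its KO UMIs in 1 cell, was at 104 CPM in WT and 29.2 in KO Hhip-high cells, and at 1436 and 849 CPM in Hhip-negative cells. Tnc was at 642 CPM in WT and 342 in KO Hhip-high cells, and at 605 and 129 CPM in Hhip-negative cells. The KO value was the smaller in each group for both genes. Col1a1, within 2-fold over all cells, was at 1340 and 1254 CPM in Hhip-high cells, and at 1668 and 767 CPM in Hhip-negative cells. Ctgf (Ccn2), a matricellular gene driven by TGF-beta and by stretch, was at 263 and 362 CPM in Hhip-high cells, and at 785 and 243 CPM in Hhip-negative cells. Eln was at 2423 and 1121 CPM in Hhip-high cells and at 4875 and 3633 CPM in Hhip-negative cells. Ctgf was the only 1 of 28 tested genes of the TGF-beta and BMP list past 2-fold over all cells (676 and 278 CPM). It was lower, as were 3.29% of all genes tested. Whether the groups differed in their response to the genotype was not tested, since each holds 1 library per genotype.

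The contractile list was also compared within the groups. Over all genes tested, 2.06% were higher in KO and 3.06% lower in Hhip-high cells, and 1.51% higher and 4.18% lower in Hhip-negative cells. Of the list, 1 of 23 tested genes was at least 2-fold lower in KO Hhip-high cells and 0 higher. In Hhip-negative cells 0 of its 30 tested genes were past 2-fold. The log2 ratio of their summed CPM, KO to WT, was -0.44 (-0.49 to -0.38) in Hhip-high cells and 0.14 (0.11 to 0.17) in Hhip-negative cells, with medians of -0.48 over 23 genes and -0.01 over 30 genes. Tagln had ratios of -0.52 in Hhip-high and 0.44 in Hhip-negative cells. The gene sets differ between the groups, fewer KO than WT Hhip-high cells held all 4 markers of the rule (11 of 50 against 14 of 35), and the difference between the groups was not tested.

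**Figure D5:**
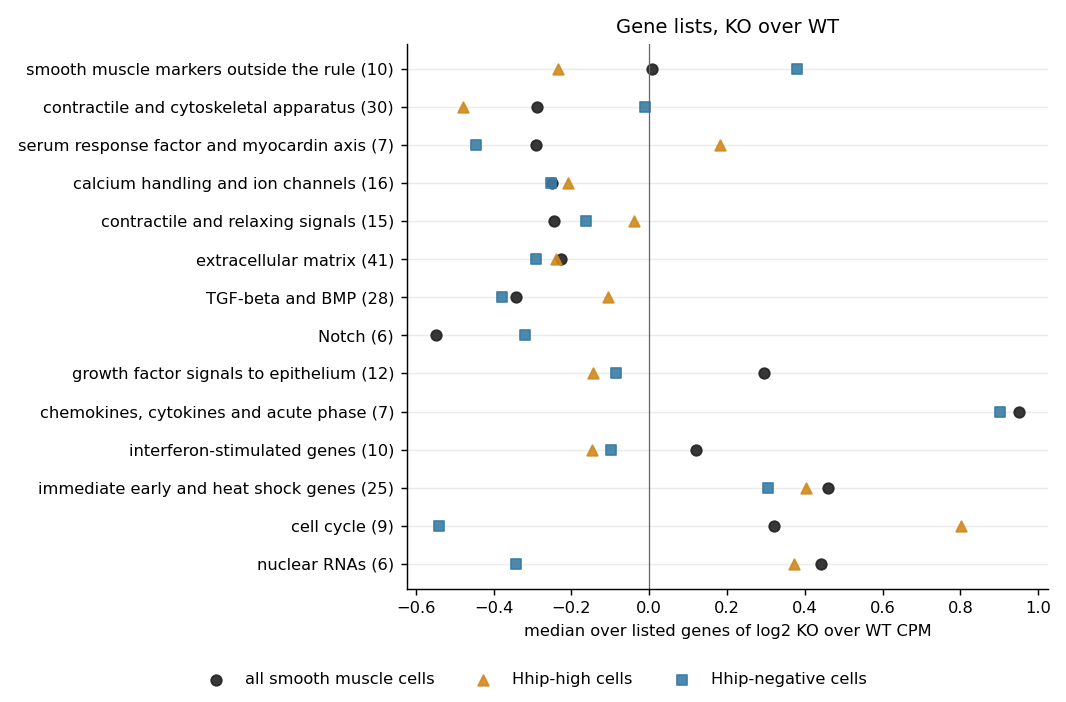
Median over the tested genes of each list of the log2 ratio of KO over WT CPM (x axis), with the number tested over all cells in brackets, for all smooth muscle cells, Hhip-high cells and Hhip-negative cells. The contractile median lies at -0.48 in Hhip-high and -0.01 in Hhip-negative cells, and immediate early genes lie above 0 in all 3.

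Immediate early and heat shock genes respond to stress, also that of tissue dissociation, and lay above WT in KO by their median. Of 25 tested, 4 were at least 2-fold higher (Junb, Ier2, Socs3 and the chaperone gene Dnajb1) and 1 lower (Klf4). Over all genes tested these shares were 1.96% and 3.29%. The median of the list was 0.46, beside -0.10 over all genes tested. Junb, a subunit of the AP-1 factor, was at 544 CPM in WT and 1154 in KO (log2 ratio 1.09), and Fos, another, at 812 and 1276 (0.65). The fibroblasts of the same libraries had ratios of 0.58 for Junb and 0.56 for Fos. Malat1, a nuclear RNA, was at 14375 and 20648 CPM in smooth muscle (0.52), and its ratio in fibroblasts was 0.29. With 1 library per genotype, library and genotype cannot be told apart here.

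The next 3 lists stand beside shares of 1.96% higher and 3.29% lower over all genes tested. Of 9 tested cell cycle genes 2 were at least 2-fold higher in KO and 1 was lower, with a median of 0.32. The higher genes were the growth arrest gene Gadd45g and the p53 regulator Mdm2 (29 of its 57 KO UMIs in 1 cell). The lower gene was Stmn1, a microtubule regulator that is abundant in dividing cells, at 115 CPM in WT and 21.7 in KO (-2.41). The summed CPM of the 28 listed genes was 1549 in WT and 1423 in KO. Most listed genes of dividing cells were too rare to be tested. Mki67 and Top2a, genes of proliferating cells that were among these, had 28 and 42 UMIs in WT, in 5 and 4 cells, and 0 UMIs in the 108 KO cells. Of the WT UMIs 16 of each gene lay in 1 cell. The interferon list had 10 tested genes, of which 1, Iigp1, was lower in KO and 0 were higher. Of 7 tested chemokine, cytokine and acute phase genes 3 were higher (Cxcl14, C3 and Hp) and 0 lower. A single KO cell each held 106 of the 120 KO UMIs of Cxcl14 and 38 of the 62 of Hp.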

How the data were processed

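Cells were sorted from lungs, and the authors made the libraries with a Chromium 3′ v3.1 kit and aligned them to mouse GRCm38 (mm10) with Cell Ranger, version 3.1.0 by the processing notes and 5.0.0 by the matrix headers. The deposited values are raw UMI counts per gene and barcode. UMIs were summed over the selected cells of each library and scaled to CPM. Differences are ratios of these sums with exact conditional intervals, shares have Clopper-Pearson intervals, and 2-fold replaces a significance call. Genes needed 50 UMIs over both libraries, and 0.5 UMI was added only where a count was 0 (a bound on such a fold uses 3 UMIs per library). Named genes were the rule genes, Pclaf, Clic4, each list's 4 most abundant members and those past 2-fold, the 12 highest and lowest ratios, and the 15 genes most in excess over other barcodes. Other genes named were chosen after their values were seen. Members, lists, Hhip groups and several alternatives were chosen with earlier results of these data known.

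No doublets were removed: the Scrublet threshold of scanpy 1.11.5 called 0 barcodes, which shows no working call, so a score of 0.25 was tried as an alternative. TMM factors came from edgeR 4.0.16 (R 4.3.3), and the rest used Python 3.11.15, numpy 2.4.6, scipy 1.17.1 and pandas 2.3.3. The ratio and interval steps were tested on simulated data.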

Additional observations from a re-analysis of the deposited data

How the results depend on the processing

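No paired analysis was possible because each genotype has 1 library, and leaving out a replicate was not possible for the same reason. The planned removal of Scrublet calls could not be run, as it called 0 barcodes. Of the log2 ratios of named genes under all alternatives, 504 stayed within the counting interval, 118 moved beyond it with no reversal of a 2-fold difference, and 1, Cthrc1, had such a reversal, at 0.43 with no upper limit on genes per barcode. Counting genes under 2-fold too, 35 of the 623 values, in 11 of 45 genes, had the other sign. The median of the fibroblast list was -0.56 in Hhip-negative cells and -0.21 with genes of at least 20 UMIs, and that of the immune list was 0.21 after thinning. The causes were not tested. The WT share of smooth muscle cells was 0.400% with the gene limits read as UMI limits, 0.398% with at least 3 markers, 1.20% without exclusion genes, 0.659% in barcodes with at least 1000 UMIs and 6.04% of mesenchymal barcodes. The KO share was 0.454% with at least 3 markers, 1.07% without exclusion genes and 3.97% of mesenchymal barcodes. Hhip-high cells made up 61.5% of KO cells under UMI limits, 28.2% with at least 3 markers, and 14% of WT cells with Xist alone. Genes at least 2-fold higher numbered 43 under UMI limits, 43 with 3 markers, 153 without exclusion genes, 27 in Hhip-high cells, 45 in Hhip-negative cells, 38 in cells with Y-linked RNA alone, 253 at 20 UMIs, 20 at 200 UMIs, 19 after thinning and 30 among enriched genes. Genes at least 2-fold lower numbered 608 without exclusion genes, 40 in Hhip-high cells, 85 in cells with Xist alone, 476 at 20 UMIs, 12 at 200 UMIs, 30 after thinning and 32 among enriched genes. Medians of lists had the other sign in 42 of 410 values.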
